A study of Mus musculus with 9 samples.

Results

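Neuropeptide and gut hormone genes were followed across pancreatic neuroendocrine tumors (PanNETs) and normal islets of the mouse. The set held 10 genes of the 54347 listed, namely Vip, Nucb2, Npy, Gal, Cck, Gast, Tac1, Ghrl, Nts and Sct. Vip and Nucb2 were chosen by their lower values in tumors than in islets of these same libraries, so their difference between tumors and islets is given as a description, with no test. The other 8 were chosen for what they encode, signalling peptides that islets or neuroendocrine tumors can make.

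RNA was sequenced from 6 tumors of INS-p25OE mice and from 3 samples of normal islets, 1 library each. INS-p25OE mice carry Ins2-rtTA and tetOp-p25GFP, so that doxycycline switches on p25, an activator of the kinase Cdk5, from the insulin promoter in beta cells, and some transgene is expressed without the drug. These mice were given doxycycline in the drinking water from weaning and were kept on the C57BL/6 background. M1, M2 and M3 are called functional tumors in the study and carry the word Inulin in their titles, and M4, M5 and M6 are called non-functional tumors. NI1, NI2 and NI3 are islets of C57BL/6 mice, labelled as beta islets. M2 came from a female and the other 8 libraries from males. The ages of the sequenced animals, and whether the islet donors drank doxycycline, are not given in the sources used here. The study describes its sample sizes as biological replicates, while the labels tie no library to an animal.

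Neuropeptides and gut hormones are made as long precursors, cut by the convertases Pcsk1 and Pcsk2, trimmed by carboxypeptidase E and often amidated by Pam before they are stored in granules. They act on receptors of neighbouring cells, most of them coupled to G proteins. In the normal pancreas VIP is known chiefly from nerve fibres, while cholecystokinin and gastrin are known from gut endocrine cells, and PanNETs are known for the release of hormones, VIP and gastrin among them, that adult beta cells do not secrete.

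Between 36468280 and 63637175 estimated reads were counted per library. Levels are given as CPM, counts scaled to a common library total, with library totals adjusted by the trimmed mean of M-values (TMM). The detection limit was set at 3 counts, which was 0.0424 to 0.119 CPM depending on the library. The library labelled NI1 stood apart from the other islets. Of 36 pairs of libraries, NI1 and the tumor M6 were the closest, with a root mean square difference of 0.318 in log2(CPM + 1) over 15532 genes. NI2 and NI3 came next at 0.482, and NI1 lay 0.759 from NI2 and 0.850 from NI3. Cdk5r1, which encodes p35, the source of p25, was at 149 to 400 CPM in tumors, and at 18.3 and 12.5 CPM in NI2 and NI3. In NI1 it was at 279 CPM, which goes against the label of that library. The fits of the tested members are therefore given with and without the library labelled NI1. So are the calls in the lists of receptors, enzymes, other peptides and transcription factors. Other comparisons with islets include NI1 unless it is said to be left out. Mitochondrial genes took 32.1% of the counts in M4 (95% Wilson interval 32.10% to 32.13%, counting error only) and 1.76% to 8.41% in the other libraries.

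**Figure D1:**
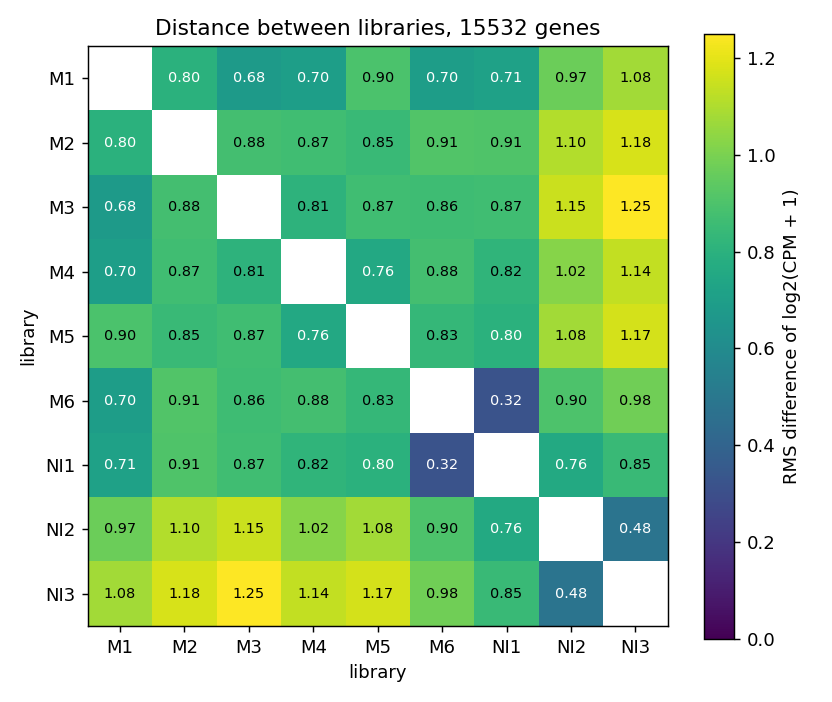
Root mean square difference of log2(CPM + 1) between each pair of the 9 libraries, over 15532 genes. Darker cells are closer pairs, and the M6 and NI1 pair, at 0.32, is darker than the NI2 and NI3 pair, at 0.48.

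Of the members, 4 had at least 1 CPM in at least 3 libraries, and the 250 bases before the annotated start of each are shown here because their levels carry the comparisons below. The sequences are from RefSeq on GRCm38.p6, are written 5′ to 3′ on the strand of the gene and end at the base before the start. Vip lies on the plus strand (chr10:5638968-5639217 for the window), Nucb2 on the plus strand (chr7:116504119-116504368), Npy on the plus strand (chr6:49822460-49822709) and Cck on the minus strand (chr9:121495695-121495944). Capitals mark TGACG (the short form of the cAMP response element, which the factor CREB binds), the full element TGACGTCA, TGANTCA (the element bound by Fos and Jun) and TATAAA (the TATA box), each searched on both strands. A full cAMP response element also counts as a short one.
Vip: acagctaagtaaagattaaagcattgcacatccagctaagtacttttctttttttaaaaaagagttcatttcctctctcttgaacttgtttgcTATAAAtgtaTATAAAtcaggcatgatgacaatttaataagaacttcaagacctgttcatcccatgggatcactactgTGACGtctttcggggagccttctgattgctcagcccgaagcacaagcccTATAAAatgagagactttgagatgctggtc
Nucb2: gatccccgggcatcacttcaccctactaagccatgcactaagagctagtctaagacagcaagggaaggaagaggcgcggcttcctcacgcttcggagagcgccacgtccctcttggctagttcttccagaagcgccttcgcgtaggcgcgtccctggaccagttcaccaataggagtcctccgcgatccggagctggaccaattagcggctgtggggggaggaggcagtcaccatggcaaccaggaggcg
Npy: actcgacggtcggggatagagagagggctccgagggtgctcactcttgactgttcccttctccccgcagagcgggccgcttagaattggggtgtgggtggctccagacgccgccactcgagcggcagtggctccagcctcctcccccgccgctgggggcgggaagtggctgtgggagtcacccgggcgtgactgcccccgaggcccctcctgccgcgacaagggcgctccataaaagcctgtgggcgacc
Cck: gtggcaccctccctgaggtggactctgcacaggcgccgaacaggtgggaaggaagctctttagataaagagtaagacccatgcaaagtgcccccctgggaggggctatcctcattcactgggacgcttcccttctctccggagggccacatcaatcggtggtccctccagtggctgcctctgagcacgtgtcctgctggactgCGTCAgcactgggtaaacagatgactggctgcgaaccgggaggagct

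In these windows, TATAAA stood 30 to 25 bases before the start of Vip and at 2 places further upstream, and TGACG stood 79 to 75 bases before it. Cck held CGTCA, the short element read on the other strand, 47 to 43 bases before its start. Nucb2 and Npy held none of the 4 motifs as spelled here. All 10 members matched the RefSeq table. Of all 32851 windows of that length in it, 17.8% held TGACG, 1.55% held TGACGTCA, 6.75% held TGANTCA and 12.4% held TATAAA. A match of letters is a description and not evidence of binding.

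In tumors against islets 4 members could be tested, and 2 of them, Npy and Cck, had not been picked for this contrast. Neither passed edgeR's quasi-likelihood test at an adjusted p of 0.05 with all 9 libraries, so 0 of 2 were called. Over all 15532 genes, 0% were called higher and 0.258% lower in tumors. At an unadjusted p under 0.05 edgeR counted 1655 genes higher and 1419 lower, and DESeq2 called 764 higher and 488 lower after adjustment, Npy and Cck among the higher genes. Without NI1, 1 of the 2 members, Npy, was called higher, where 5.34% of all genes were called higher and 3.17% lower. By level alone, every tumor lay above every islet library for Npy, which held for 4.5% of all genes, and every tumor lay below every islet library for Vip and Nucb2, the picked pair, as for 3.17% of all genes. Vip passed the filter on low counts through the islets only. Cck passed it through tumors only, with M6 and every islet library below 1 CPM. Its tests in this contrast are therefore not independent of the filter. The other 6 members, Gal, Gast, Tac1, Ghrl, Nts and Sct, did not reach the filter and stayed below 3 CPM in every library.

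**Figure D2:**
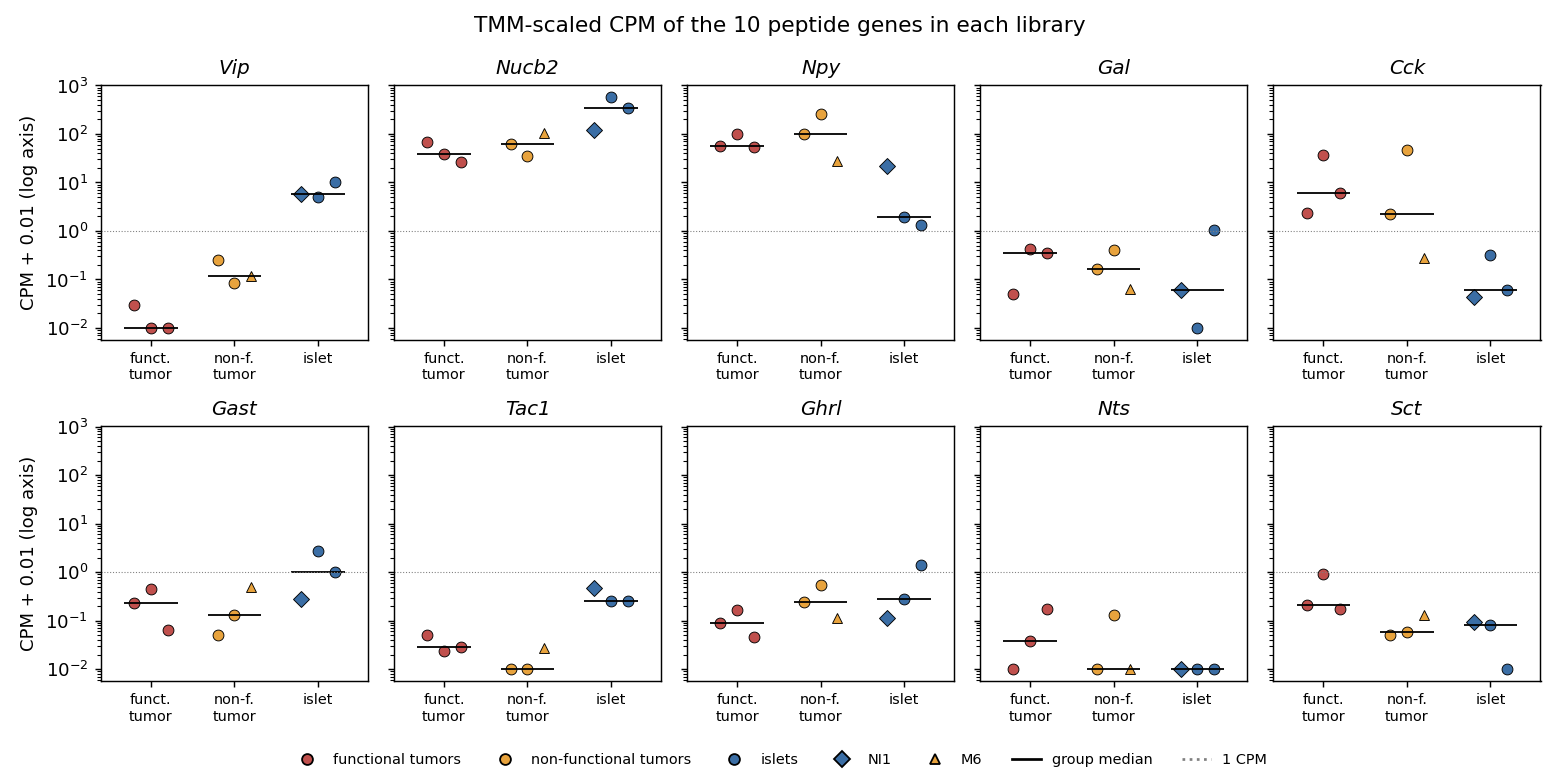
Level of each of the 10 genes in each library, as CPM + 0.01 on a log axis. Points are libraries (diamond NI1, triangle M6), black lines are group medians and the dotted line is 1 CPM. Vip, Nucb2 and Tac1 lie lower in all 6 tumors than in all 3 islet libraries and Npy lies higher, while Gal, Gast, Tac1, Ghrl, Nts and Sct stay below 3 CPM.

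Vip encodes vasoactive intestinal peptide, a relaxant of smooth muscle and a stimulant of insulin secretion. The gene (ENSMUSG00000019772) lies on chromosome 10 of GRCm38 from 5639218 to 5647617. Functional tumors M1, M2 and M3 had 0.0201, 0 and 0 CPM, and non-functional tumors M4, M5 and M6 had 0.237, 0.0736 and 0.105 CPM. The islet libraries had 5.80 CPM (NI1), 5.11 CPM (NI2) and 10.4 CPM (NI3). The tumors and islets did not overlap, and NI1 sat with the other islets here rather than with M6. As counts, the 6 tumors held 16 reads in all and the 3 islet libraries held 970, a ratio of 129 for islets over tumors (exact 95% interval of counting error 79.3 to 227), or 145 (88.3 to 254) with NI2 and NI3 alone. The mean was 0.0727 ± 0.0911 CPM (SD, n = 6) in tumors and 7.11 ± 2.88 CPM (SD, n = 3) in islets. The fitted log2 fold change was -6.76 (SE 1.01) and -6.88 without NI1, and both depend on the prior count because M2 and M3 held 0 reads. In bulk libraries such as these, fewer cells that make a transcript and less transcript per cell cannot be told apart.

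Nerve fibres are a known source of VIP, so 12 markers of peripheral neurons were read beside it. Their summed level was 30.3 to 204 CPM in tumors and 44.3 to 73.9 CPM in islets, and 0 of the 6 tested were called. Th, an enzyme of catecholamine synthesis, made up much of that sum, at 10.9 to 184 CPM in tumors and 10.4 to 30.5 CPM in islets. For 3 of the 12, Phox2a, Slc18a3 and Nefl, every islet library lay above every tumor, as for Vip and for 3.17% of all genes tested. Phox2a was at 0 to 0.0907 CPM in tumors and 0.137 to 0.668 CPM in islets. Slc18a3 was at 0 to 0.0363 CPM in tumors and 0.222 to 0.866 CPM in islets, and Nefl at 0 to 0.270 and 0.359 to 2.15 CPM. All 3 were below the filter on low counts, and they and Th were named after their values were seen. The part of nerve fibres in the Vip values was not tested.

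Nucb2 encodes nucleobindin 2, the precursor of nesfatin-1, a peptide known to reduce food intake. The gene (ENSMUSG00000030659) lies on chromosome 7 from 116504369 to 116540584. Functional tumors M1, M2 and M3 held 68.1, 38.8 and 26.7 CPM, and non-functional tumors M4, M5 and M6 held 63.4, 34.6 and 105 CPM. The islets held 123 CPM (NI1), 592 CPM (NI2) and 347 CPM (NI3). The groups did not overlap, but NI1 was much closer to M6 than to either of the other islets. The mean was 56.0 ± 28.9 CPM (SD, n = 6) in tumors and 354 ± 235 CPM (SD, n = 3) in islets. The fitted log2 fold change was -2.66 (SE 0.49) with all libraries and -3.07 (SE 0.44) without NI1. Nucb1, the paralog of Nucb2, fell from 490 CPM in NI2 and 454 CPM in NI3 to 121 to 285 CPM in tumors, with NI1 at 268 CPM. For Nucb1, which was named after its values were seen, edgeR's quasi-likelihood test after Benjamini-Hochberg adjustment gave a log2 fold change of -1.14 (SE 0.29, adjusted p = 0.148) with all libraries and of -1.36 (SE 0.30, adjusted p = 0.0265) without NI1.

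Genes of other cells and of handling also ran lower in tumors than in islets, beside the picked pair. Over all genes tested, edgeR called 0.258% lower in tumors and 0% higher. Every tumor lay above every islet library for 4.5% of them and below for 3.17%. Of 11 genes of the dissociation response, which tissue digestion is known to induce, 9 were called lower in tumors by edgeR. Their summed level was 98.4 to 167 CPM in tumors against 611, 2706 and 1472 CPM in NI1, NI2 and NI3. Fos, the most changed of them, was at 1.40 to 3.92 CPM in tumors and at 156, 1043 and 440 CPM in NI1, NI2 and NI3. Of 7 lymphoid markers 2 were called lower, Ms4a1 among them, with a sum of 21.0 to 115 CPM in tumors and 163 to 202 CPM in islets. The 8 acinar markers lay higher in every islet library than in every tumor, with sums of 0.862 to 338 CPM in tumors and 629 to 11907 CPM in islets, and 0 of the 7 tested were called. Other lists ran the other way. Macrophage markers summed to 352 to 962 CPM in tumors and 154 to 329 CPM in islets, with a median log2 fold change of 1.31, and 4 of 6 were higher in every tumor than in every islet library. Fibroblast markers summed to 104 to 2055 CPM in tumors, lowest in M6, and to 122 to 189 CPM in islets, with a median log2 fold change of 1.27. No marker of either list was called by edgeR, and the part of these lists in the values of Vip, Nucb2, Npy and Cck was not tested.

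Npy encodes neuropeptide Y, which is known to restrain insulin secretion and is made by sympathetic nerves and by immature beta cells. The gene (ENSMUSG00000029819) lies on chromosome 6 from 49822710 to 49829507. Functional tumors M1, M2 and M3 had 56.9, 99.1 and 53.4 CPM, and non-functional tumors M4, M5 and M6 had 101, 256 and 27.2 CPM. Its islet values were 22.0 CPM (NI1), 1.90 CPM (NI2) and 1.31 CPM (NI3). All 6 tumors lay above all 3 islet libraries, but M6 and NI1 were close, and NI1 was over 10 times above the other islets. The mean was 99.0 ± 82.2 CPM (SD, n = 6) in tumors, 8.40 ± 11.8 CPM (SD, n = 3) in islets and 1.61 ± 0.42 CPM (SD, n = 2) in NI2 and NI3. With all 9 libraries the log2 fold change was 3.55 (SE 1.07), and it did not pass edgeR's quasi-likelihood test after Benjamini-Hochberg adjustment (adjusted p = 0.161, higher in 6 of 6 tumors). Without NI1 it was 5.94 (SE 1.01, adjusted p = 0.0113), and without M6 it was 3.75 (SE 1.04, adjusted p = 0.0951). Sympathetic nerves are another known source, and the summed peripheral neuron markers were highest in M5 (204 CPM), as Npy was, but lowest in M1 (30.3 CPM), with M6 and NI1 at 43.7 and 44.3 CPM. Of that list, Th was highest in M5 (184 CPM) and lowest in M6 and NI1 (10.9 and 10.4 CPM), and Dbh, which marks sympathetic neurons, had 0 reads in every library. Their part in the Npy values was not tested.

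Galanin, the product of Gal, is a neuropeptide that is known to inhibit insulin release. Gal was at 0.0402, 0.424 and 0.345 CPM in M1, M2 and M3, at 0.158, 0.392 and 0.0527 CPM in M4, M5 and M6, and at 0.0513, 0 and 1.01 CPM in NI1, NI2 and NI3. The islets spanned the tumors, since NI2 held 0 reads and NI3 more than any tumor. In a fit without the filter on low counts, its adjusted p was 0.826 by edgeR.

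Tac1 encodes substance P and neurokinin A, peptides of sensory and enteric nerves. It had 2, 1 and 1 reads in M1, M2 and M3, 0, 0 and 1 reads in M4, M5 and M6, and 27, 10 and 10 reads in NI1, NI2 and NI3. No tumor exceeded the limit of 3 counts while every islet library did, NI1 included. Over the groups the ratio of islets to tumors was 20.1 (exact 95% interval of counting error 8.01 to 64.6), and it was 14.7 (5.34 to 50.0) for NI2 and NI3. In the fit without the filter the adjusted p was 0.0995 by edgeR.

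Neurotensin, the product of Nts, is a peptide of gut endocrine cells and of the brain. Nts had 0, 2 and 9 reads in M1, M2 and M3 and 0, 5 and 0 reads in M4, M5 and M6. It had 0 reads in each islet library, which allows up to 0.0214 CPM over the 3 libraries. Pooled over the tumors, its 16 reads lay 2.50-fold above a floor of 3 counts over all islets. That ratio leaves out the counting error of the tumor reads and the spread between tumors. Only M3 and M5 exceeded 3 counts. The adjusted p in the fit without the filter was 0.348 by edgeR.

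Cck encodes cholecystokinin, the gut hormone that triggers gallbladder contraction and enzyme release. The gene (ENSMUSG00000032532) lies on chromosome 9 from 121489824 to 121495694. Functional tumors M1, M2 and M3 held 2.35, 36.0 and 6.19 CPM, and non-functional tumors M4, M5 and M6 held 2.22, 47.8 and 0.263 CPM. The islets held 0.0342 CPM (NI1), 0.317 CPM (NI2) and 0.0495 CPM (NI3). Of the tumors, 5 lay above every islet library, while M6 lay below NI2, and M2 and M5 held most of the reads. NI1 and NI3 each held 2 reads and NI2 held 13. The mean was 15.8 ± 20.6 CPM (SD, n = 6) in tumors and 0.133 ± 0.159 CPM (SD, n = 3) in islets. In reads, 5027 in tumors against 17 in islets gave a ratio of 139 (exact 95% interval of counting error 86.5 to 238), or 91.5 (55.4 to 164) against NI2 and NI3. The log2 fold change of 6.91 (SE 1.91) did not pass edgeR's quasi-likelihood test after Benjamini-Hochberg adjustment (adjusted p = 0.152). Cck passed the filter on low counts through tumors only, and its adjusted p in the fit without the filter was 0.0980 by edgeR. Without NI1 it was 6.41 (SE 2.29, adjusted p = 0.112), and without M6 it was 7.17 (SE 1.57, adjusted p = 0.0573). Without NI2, which held 13 of the 17 islet reads, it was 8.51 (SE 2.54, adjusted p = 0.582 by edgeR).

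Markers of gut epithelium were read beside Cck, since gut endocrine cells are a known source of it, though not the only one. The 10 markers summed to 31.9 to 96.3 CPM in tumors and 73.9 to 198 CPM in islets, and 0 of the 2 tested were called. Those 2, Vil1 and Lgals4, made up most of the sum. Vil1 was at 23.8 to 63.9 CPM in tumors and 56.0 to 186 CPM in islets. Lgals4 was at 4.44 to 51.7 CPM in tumors, highest in M5, and at 5.07 to 17.5 CPM in islets. Alpi was at 0 in all 9 libraries and Cdx1 at 0 in all tumors. Cdx2, a defining factor of the intestine, was at 0 in M1, M2, M4 and M6 and at 0.145 CPM in M3 and 0.123 CPM in M5. Tff3, a peptide of mucus-secreting cells, was higher in every tumor than in every islet library, at 0.254 to 2.97 CPM in tumors and 0.146 to 0.247 CPM in islets, and its highest libraries were M5 (2.97 CPM) and M2 (1.62 CPM), the pair highest in Cck. Cdh17, an intestinal cadherin, was highest in M2 at 1.89 CPM but at 0.196 CPM in M5. Vil1, Lgals4, Cdx2, Tff3 and Cdh17 were named after their values were seen, and the part of such cells in the Cck values was not tested.

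Gast encodes gastrin, the stimulant of gastric acid. It was at 0.221, 0.438 and 0.0544 CPM in M1, M2 and M3, at 0.0396, 0.123 and 0.474 CPM in M4, M5 and M6, and at 0.274, 2.78 and 1.01 CPM in NI1, NI2 and NI3. NI2 and NI3 lay above all tumors and NI1 lay among them. The log2 fold change in the fit without the filter was -2.49 (SE 0.89, adjusted p = 0.225 by edgeR).

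Ghrl encodes ghrelin, the appetite hormone of the stomach, which a minor islet cell also makes. It was at 0.0804, 0.155 and 0.0363 CPM in M1, M2 and M3, at 0.237, 0.539 and 0.105 CPM in M4, M5 and M6, and at 0.103, 0.268 and 1.41 CPM in NI1, NI2 and NI3. NI3 was the highest library, and NI1 and NI2 lay within the range of the tumors. The adjusted p without the filter was 0.442 by edgeR.

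Sct encodes secretin, the hormone that makes the pancreas release bicarbonate. It was at 0.201, 0.904 and 0.163 CPM in M1, M2 and M3, at 0.0396, 0.0490 and 0.123 CPM in M4, M5 and M6, and at 0.0855, 0.0731 and 0 CPM in NI1, NI2 and NI3. M2, the only library from a female, was the highest, with 64 reads, and M1, M3 and M6 also lay above every islet library. The adjusted p without the filter was 0.434 by edgeR.

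To compare the genes with each other, levels were divided by the exon length. In tumors the median was 138 CPM per kilobase for Npy, 21.9 for Nucb2 and 3.27 for Cck, and 0.374 or less for the other 7. The ranges of Npy (48.1 to 453 CPM per kilobase) and Nucb2 (11.5 to 44.8) did not overlap, while that of Cck (0.202 to 36.6) overlapped with Nucb2. In NI2 and NI3 Nucb2 came first at a mean of 202 CPM per kilobase, followed by Gast at 4.12, Npy at 2.84 and Vip at 2.28, and the last 3 overlapped each other. In NI1 the order was Nucb2 at 52.8, Npy at 38.8 and Vip at 1.70 CPM per kilobase.

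Between functional and non-functional tumors, a contrast that the choice of members did not use, 0 of the 4 tested members were called by edgeR, and 0% of all genes were. At an unadjusted p under 0.05 edgeR counted 732 genes higher and 866 lower in functional tumors, and DESeq2 called 22 higher and 89 lower after adjustment but 0 members. Vip was the 1 of 4 tested members whose levels did not overlap between the tumor groups, as did 15% of all genes in either direction. It had 1, 0 and 0 reads in the functional tumors and 6, 3 and 6 reads in the non-functional tumors, a ratio of 21.4 for non-functional over functional tumors (exact 95% interval of counting error 3.29 to 901). Only 2 tumors, M4 and M6, exceeded the detection limit of 3 counts, so this separation lies near that limit. Vip passed the filter through the islets only. Its fitted log2 fold change, functional minus non-functional, was -4.00 (SE 0.98, adjusted p = 0.455 by edgeR's quasi-likelihood test after Benjamini-Hochberg adjustment), which depends on the prior count at such levels. The values for Nucb2 (-0.60, SE 0.59, adjusted p = 0.750), Npy (-0.88, SE 1.04, adjusted p = 0.794) and Cck (-0.17, SE 1.53, adjusted p = 0.979) were within their standard errors or close to them. Sct, below the filter, had 10, 64 and 9 reads in functional and 1, 2 and 7 reads in non-functional tumors, a ratio of 5.82 (3.01 to 12.6), with an adjusted p of 0.751 in the fit without the filter.

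**Figure D3:**
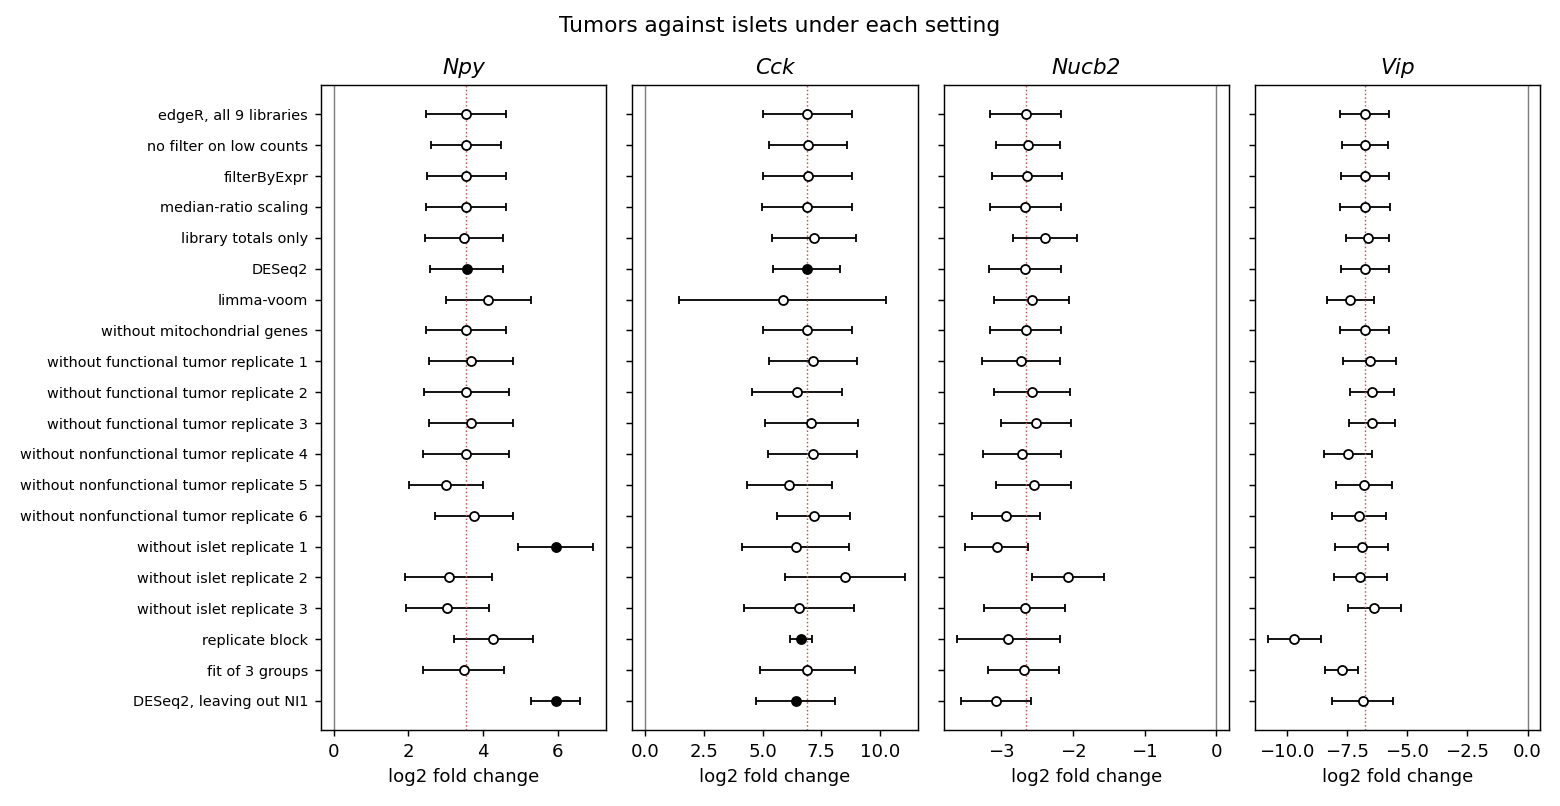
Log2 fold change of Npy, Cck, Nucb2 and Vip in tumors against islets under each setting, with bars of 1 standard error. The dotted line is the value of the fit with all 9 libraries, and filled points passed an adjusted p of 0.05 (Npy and Cck only, since Vip and Nucb2 were not tested). No point crosses 0, and Npy moves from 3.55 to 5.94 when islet replicate 1 (NI1) is left out.

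Of the 19 receptors for these peptides 7 passed the filter, and 0 were called in tumors against islets, with NI1 or without it. Their median log2 fold change was -0.06, beside 0.03 over all genes tested. Sort1 (sortilin, which binds neurotensin), Galr1 (a galanin receptor) and Vipr1 (a VIP receptor) had the highest levels per length. Sort1 was at 81.4 to 227 CPM in tumors and 149 to 169 CPM in islets, and Galr1 was at 42.6 to 83.8 CPM in tumors and 31.6 to 72.2 CPM in islets. Vipr1 was at 102, 111 and 108 CPM in M1, M2 and M3, at 78.7, 96.8 and 10.9 CPM in M4, M5 and M6, and at 15.9, 57.4 and 69.0 CPM in NI1, NI2 and NI3. M6 and NI1 were the 2 lowest libraries for Vipr1, and the other 5 tumors lay above all islets (log2 fold change 0.84, SE 0.64, adjusted p = 0.487 by edgeR). Npy2r, Npy5r and Ntsr2 had 0 reads in all 9 libraries. Both cholecystokinin receptors, Cckar and Cckbr, were below 0.2 CPM in every tumor.

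**Figure D4:**
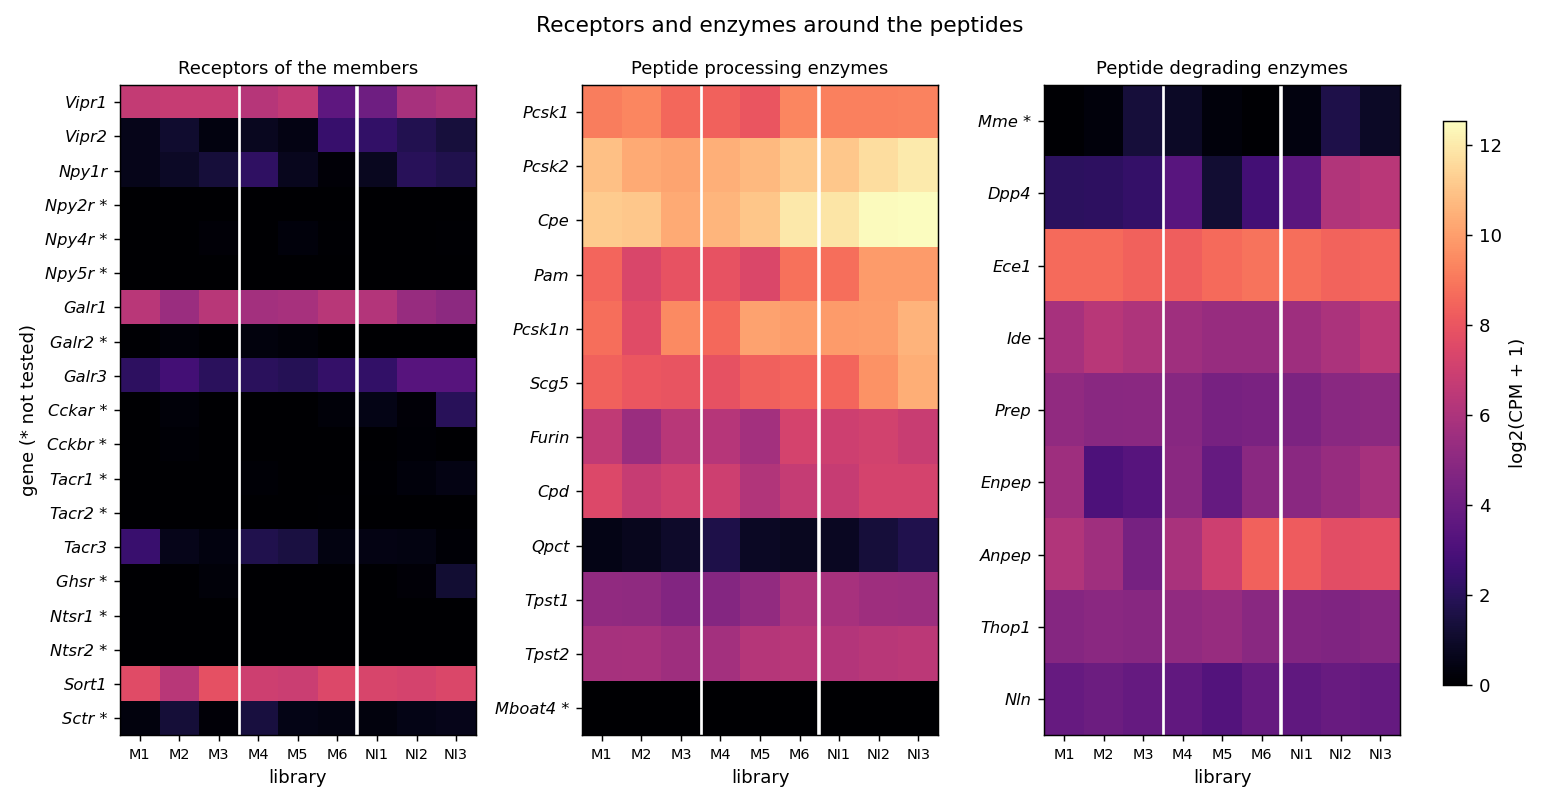
Levels as log2(CPM + 1) of 19 receptors, 12 processing enzymes and 9 degrading enzymes in each library. White lines part functional tumors, non-functional tumors and islets, and asterisks mark genes below the filter. Most receptors are near 0, while processing enzymes such as Cpe are high in all 9 libraries.

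Of 12 enzymes that turn precursors into peptides 11 were tested and 0 called, with a median log2 fold change of -0.72 beside 0.03 over all genes. All 11 had a log2 fold change below 0, from -1.53 to -0.18, where 8155 of all 15532 genes tested lay above 0. When scaled by library totals only, 10 of 11 lay below 0, and the median over all genes was 0.24. When NI1 was left out, 0 were called higher and 2 lower, where 5.34% of all genes were called higher and 3.17% lower. Cpe, the carboxypeptidase, was at 1257 to 4014 CPM in tumors and at 3694, 5743 and 5942 CPM in NI1, NI2 and NI3 (log2 fold change -1.19, SE 0.40, adjusted p = 0.170 by edgeR). Pcsk1n, an inhibitor of Pcsk1, was at 194 to 1100 CPM in tumors and 977 to 1506 CPM in islets. Scg5, the chaperone of Pcsk2, was at 230 to 363 CPM in tumors and at 361, 817 and 1352 CPM in NI1, NI2 and NI3. Its log2 fold change was -1.52 (SE 0.34, adjusted p = 0.133 by edgeR), and without NI1 it fell by 1.88 on the log2 scale (adjusted p = 0.00615). Pam, the amidating enzyme, was named after its values were seen and fell by 1.82 on the log2 scale without NI1 (adjusted p = 0.0209 by edgeR), but had an adjusted p of 0.139 with all libraries. Mboat4, which acylates ghrelin, had 0.0171 CPM in NI1 and 0 in the other libraries.

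Of 9 enzymes that degrade peptides 8 were tested and 0 called, with a median log2 fold change of -0.12. When NI1 was left out, 0 were called higher and 1 lower, where 5.34% of all genes were called higher and 3.17% lower. Ece1, Anpep and Ide had the highest levels per length. Ece1 was at 310 to 465 CPM in tumors and 352 to 434 CPM in islets, and Ide at 40.0 to 80.8 CPM in tumors and 46.2 to 87.2 CPM in islets. Anpep was at 19.3 to 335 CPM in tumors and 209 to 292 CPM in islets, with M6 at the top of the tumors beside NI1. Dpp4, which cleaves incretins and neuropeptide Y, was named after its values were seen. It was at 1.30 to 9.53 CPM in tumors and at 10.1, 70.0 and 82.8 CPM in NI1, NI2 and NI3, with a log2 fold change of -3.59 (SE 0.64, adjusted p = 0.0600 by edgeR) and of -4.08 (SE 0.52, adjusted p = 0.00365) without NI1.

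Among 55 other peptide hormone and neuropeptide genes 24 were tested and 0 called, with a median log2 fold change of -0.64. Without NI1, 1 was called higher and 2 lower, where 5.34% of all genes were called higher and 3.17% lower. The highest levels per length were those of the beta cell hormones Ins2, Ins1 and Iapp. Ins2 was at 7300 to 88553 CPM in tumors and at 88729, 232555 and 248222 CPM in NI1, NI2 and NI3 (log2 fold change -2.11, SE 0.99, adjusted p = 0.270 by edgeR). Ins1 had a log2 fold change of -1.89 (SE 0.71, adjusted p = 0.196) and Iapp of -1.33 (SE 0.59, adjusted p = 0.249). Apln, which encodes apelin, was the gene called higher without NI1, at 12.4 to 71.8 CPM in tumors against 17.4, 3.85 and 2.10 CPM in NI1, NI2 and NI3 (log2 fold change 3.57, SE 0.76, adjusted p = 0.0238 by edgeR). Nucb1 and Gcg, which encodes glucagon, were the 2 called lower without NI1. Gcg was at 238 CPM or less in tumors and at 786, 2308 and 14230 CPM in NI1, NI2 and NI3 (log2 fold change -7.09, SE 1.19, adjusted p = 0.0110 by edgeR), and with all libraries its adjusted p was 0.0704. Apln, Nucb1 and Gcg were named after their values were seen.

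Of 21 transcription factors of islet and enteroendocrine cells 18 were tested and 0 called, with a median log2 fold change of -0.06. Neurod1, Insm1 and Nkx2-2, which maintain endocrine identity, had the highest levels per length, and their tumors and islets overlapped. Neurod1 was at 120 to 229 CPM in tumors and 164 to 228 CPM in islets. When NI1 was left out, 2 were called higher and 1 lower, where 5.34% of all genes were called higher and 3.17% lower. Pax4 was among the higher and Crem was the lower one, both named after their values were seen. Pax4, a factor of beta cell precursors, was at 0.784 to 144 CPM in tumors and at 57.9 CPM in NI1 and listed at 0 in NI2 and NI3. Crem, which binds cAMP response elements, was at 9.01 to 21.1 CPM in tumors and at 10.2, 31.0 and 31.1 CPM in NI1, NI2 and NI3 (log2 fold change -1.30, SE 0.33, adjusted p = 0.0415 by edgeR without NI1, and 0.224 with it).

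The label of the islets was read against islet markers. The 9 beta cell markers summed to 18372 to 116542 CPM in tumors, 121699 CPM in NI1, 326996 CPM in NI2 and 364452 CPM in NI3, and none was at 0. Ins1, Ins2 and Iapp made up most of these sums. Of the 9, 2 lay higher in every islet library than in every tumor, 0 were called, and the median log2 fold change was -0.91. Pdx1, Nkx6-1 and Mafa, named after their values were seen, had log2 fold changes of 0.44, 0.14 and 0.06, with tumors and islets overlapping. Alpha cell markers summed to 284 to 813 CPM in tumors and 1568 to 15634 CPM in islets. Proliferation markers ran the other way, at 272 to 822 CPM in tumors and at 255, 128 and 38.1 CPM in NI1, NI2 and NI3. Markers of delta and PP cells, Schwann cells, ductal cells, pericytes, endothelium and erythrocytes had summed levels that overlapped between tumors and islets, and 0 were called. For alpha cells 3 of 6 markers lay higher in every islet library than in every tumor, as did 3.17% of all genes tested. For proliferation 4 of 6 lay lower, as did 4.5% of all genes tested, and 0 of the markers of these 2 lists were called by edgeR.

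The genes whose levels over the 9 libraries were most like those of Vip were Dsc3 (root mean square difference of centred log2(CPM + 1) 0.313), Pou2af1 (0.382) and Spib (0.382). Dsc3, a desmosomal cadherin, had 0 CPM in every tumor and 3.80, 2.73 and 5.15 CPM in NI1, NI2 and NI3. Spib, a transcription factor of lymphoid cells, was at 0.442 to 1.70 CPM in tumors and at 7.78, 18.0 and 14.8 CPM in NI1, NI2 and NI3, so NI1 was again on the side of the islets. The genes most like Nucb2 were Fabp3 (0.406), Cpne5 (0.411) and Fcer2a (0.423). Cpne5, a calcium-binding copine, was at 0.607 to 3.00 CPM in tumors and at 3.32, 13.5 and 7.82 CPM in NI1, NI2 and NI3, with NI1 next to M6 as for Nucb2. These likenesses are descriptions of 9 libraries, among genes chosen for their likeness.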

How the data were processed

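The authors trimmed single-end reads with Trimmomatic 0.38, quantified them with Salmon 1.4.0 on mm10 (versions from the submitters' processing notes) and deposited estimated counts per gene as whole numbers, unscaled between libraries. The step from transcripts to genes is not given in the sources used here. The file calls them TPM, but columns sum to different totals, so they were tested as counts.

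Members and gene lists were chosen with earlier results of these data known. Identifiers matched GENCODE (GRCm38) for 54094 of 54347 genes. The 253 others held 0.0121% of counts. Genes reaching 1 CPM in 3 or more of the 9 libraries (15532) were scaled by TMM and tested, two-sided, with edgeR 4.0.16 quasi-likelihood in R 4.3.3, Benjamini-Hochberg adjusted over those genes and called under 0.05. The 6 tumors formed 1 group beside 3 islet libraries. The contrast of functional with non-functional tumors came from a model with 3 groups. An SE is the log2 fold change divided by the square root of F. The fits were also run on simulated counts with the same spread for every gene, as a check of the code and not of the calls made here. Lists got counts and medians, no set test.

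Named were all members, list genes called in tumors against islets (at most 5 a list), the 3 highest per length in each list, and the 3 genes most like Vip and Nucb2. Others are said to be named after their values were seen. Most list genes enter only as counts and sums, and some are not reported here. DESeq2 1.42.0 and limma 3.58.1 (voom) were alternatives, with other filters and scalings, each library left out and a replicate block. Intervals and detection limits cover counting error only.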

Additional observations from a re-analysis of the deposited data

Results flagged for a closer look

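In the 6 tumors, 2 of the 10 members had a library whose gap to its nearest neighbour was large for the range of the group (above Dixon's 95% critical value for 6 samples). Npy was highest in M5 at 256 CPM, where the other tumors lay between 27.2 and 101 CPM, and the gap took 0.679 of the range. Sct was highest in M2 at 0.904 CPM, where the other tumors lay between 0.0396 and 0.201 CPM, and the gap took 0.813 of the range. M2 is the only library from a female, and the part of sex in that value was not tested. For normally distributed values, chance alone flags about 1 group in 20. The ratio was taken on CPM without a log scale, and whether these values are normally distributed was not tested, so that rate may not hold. Without M5 the log2 fold change of Npy in tumors against islets was 3.00 (SE 0.98, adjusted p = 0.221 by edgeR's quasi-likelihood test after Benjamini-Hochberg adjustment).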

How the results depend on the processing

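Of the members that were not picked, 2 of them tested, 0 were called in tumors against islets with all libraries, and 2 (Npy and Cck) with DESeq2, 1 (Npy) without NI1 and 1 (Cck) with a replicate block. DESeq2 without NI1, an alternative chosen after seeing the data, also called 2. Calls of Cck carry the limit that it passed the filter through tumors only. Leaving out 1 library at a time gave 0 to 1. The replicate numbers do not pair the samples (correlations of deviations -0.05, 0.03 and -0.16 for M1, M2 and M3 with their numbers), so the replicate block (Cck 6.63, adjusted p = 0.0307 by edgeR) is no paired result. Functional against non-functional tumors gave 0 members under all 17 alternatives. Over 19 alternatives Npy stayed between 3.00 and 5.94 and Cck between 5.85 and 8.51 on the log2 scale, with adjusted p of 1.59e-16 to 0.582 and 0.000211 to 0.582, and Nucb2 stayed between -3.07 and -2.07. Vip ran from -9.68 (replicate block) to -6.36 (without NI3), with -7.36 by limma-voom, -7.46 without M4 and -7.72 in the fit of 3 groups. Between the tumor groups the sign of Cck turned with limma-voom (1.83) and without M1 (0.33), M3 (0.20) or M5 (3.54), and that of Npy without M5 (0.069), with ranges of -1.97 to 3.54 for Cck and -1.36 to 0.069 for Npy over the libraries left out. The cause was not tested.

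Over all genes, against 0 higher and 40 lower, the counts were 764 and 488 with DESeq2, 6 and 98 with no filter, 2 and 58 with filterByExpr, 0 and 27 with median-ratio scaling, 2 and 64 with library totals only, 12 and 28 with the replicate block, 4 and 94 in the fit of 3 groups, and 1909 and 1041 with DESeq2 without NI1. Leaving out NI1 gave 829 and 492, leaving out M6 gave 81 and 136, and each of the others gave 0 or 1 higher and 7 to 69 lower. Library totals moved the median log2 fold change from 0.03 to 0.24. Between the tumor groups DESeq2 called 22 and 89. With log2(CPM + 0.5), 2 of the 3 genes most like Vip and 2 of the 3 most like Nucb2 stayed. Depth limits Tac1, where 5 reads in tumors leave a counting interval of 8.01 to 64.6 for the ratio of islets to tumors.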
